A study of Mus musculus with 12 samples.

Results

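The Ms4a genes described here are 8 neighbours on mouse chromosome 19 that encode small membrane proteins of immune cells: Ms4a4a, Ms4a4b, Ms4a4c, Ms4a4d, Ms4a6b, Ms4a6c, Ms4a6d and Ms4a7. They were taken by name from a table of 43698 rows, and all 8 were among the 19525 genes tested. The cluster was chosen on measured values, because Ms4a4d differed between groups in these libraries. The values of Ms4a4d are therefore given as a description with no test, and tests are given for the other 7.

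The libraries came from MC38 tumours, derived from mouse colon carcinoma cells placed under the skin of the left flank of C57BL/6J mice aged 8 weeks, and were taken on day 20. There were 6 groups of 2 libraries. Control mice (Ctrl) were given PBS, and the others DOX at 14 µg, its prodrug DPD at 14 µg, or Ru-PD-L1 (RP) at 20 µg, an antibody-catalyst conjugate against the checkpoint ligand PD-L1, all injected into the peritoneum every 3 days from day 9. In the combined groups the conjugate, at a dose the labels do not state, was followed 6 hours later by 14 µg of DOX (R+X) or of DPD (R+D) injected beside the tumour, so the route of the drug changed with the combination. The tumours are of a single transplanted line, and every group, Ctrl included, carried it. Total counts were 46547114 to 56462259 per library. Markers that define macrophages (Adgre1 at 17.1 to 34.2 CPM, counts scaled to a common library size), immune cells in general (Ptprc at 14.8 to 52.8) and T cells (Cd3e at 1.63 to 6.96) were present in every library, while the carcinoma marker Epcam was at 0.0383 to 1.302 CPM. Skeletal muscle genes stood high in RP replicate 1, RP replicate 2 and R+D replicate 2, where the list summed to 376, 189 and 455 CPM, against 81.6 to 139 CPM in the other libraries. In bulk tumour RNA, fewer cells of a type and less RNA per cell cannot be told apart.

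MS4A proteins cross the membrane several times, and the family also holds the B cell antigen CD20 (Ms4a1) and the beta chain of the high-affinity IgE receptor (Ms4a2). They sit beside other receptors and tune their signals. In mice the genes named here are known mostly from macrophages and other myeloid cells, with Ms4a4b and Ms4a6b known from T cells.

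The 8 genes filled 283.8 kb of chromosome 19, from 11321039 to 11604804 (RefSeq, GRCm38.p6), all annotated as protein coding, 6 of them on the plus strand and Ms4a7 and Ms4a6d on the minus strand. They fell into near copies and distant relatives. The coding sequences of Ms4a4b and Ms4a4c were 91.7% identical, those of Ms4a4c and Ms4a4d 85.7%, and those of Ms4a4b and Ms4a4d 83.5%. Ms4a6b shared 80.1% with Ms4a6d and 74.7% with Ms4a6c. Ms4a4a stood apart from the other Ms4a4 genes, at 59.1 to 59.9%, and the median over all pairs of the 8 was 51.75%.

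RefSeq promoter windows (250 bases before to 50 after a start, GRCm38.p6) were found for 7 of the 8 genes, all but Ms4a6d. The pair Ms4a4b (chr19:11443308-11443607, plus strand) and Ms4a4c (chr19:11407411-11407710, plus strand) is shown because the coding sequences are the closest of the cluster. Capitals mark GGAAGT on either strand (ACTTCC on the printed one), the core bound by ETS factors such as PU.1, which is central to myeloid and lymphoid cells.
Ms4a4b: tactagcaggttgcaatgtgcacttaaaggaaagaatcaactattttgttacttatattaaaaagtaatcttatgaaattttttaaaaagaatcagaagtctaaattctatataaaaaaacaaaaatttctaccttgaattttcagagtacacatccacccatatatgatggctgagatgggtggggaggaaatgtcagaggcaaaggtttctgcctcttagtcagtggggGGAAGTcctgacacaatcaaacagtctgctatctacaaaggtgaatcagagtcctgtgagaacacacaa
Ms4a4c: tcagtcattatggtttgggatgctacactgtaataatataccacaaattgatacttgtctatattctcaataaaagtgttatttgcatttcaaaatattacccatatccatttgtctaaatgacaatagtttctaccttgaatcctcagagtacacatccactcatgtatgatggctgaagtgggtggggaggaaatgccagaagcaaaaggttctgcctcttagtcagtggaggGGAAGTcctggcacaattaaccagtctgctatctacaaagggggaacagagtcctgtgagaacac
Their windows were 72.1% identical, the highest of the cluster against a median of 46.5%, and both carry 1 GGAAGT close to the start.

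The pair Ms4a6b (chr19:11518309-11518608, plus strand) and Ms4a6c (chr19:11469118-11469417, plus strand) is shown because of the share of variance held by the group means. That share was 66.5% for the first and 24.5% for the second, a difference that was not tested. The median share over all genes tested was 49.4%, and 45.5% is expected at random. Capitals mark GGAAGT on either strand and AAAGTGAAC, which shares letters with interferon response elements and does not overlap GGAAGT here.
Ms4a6b: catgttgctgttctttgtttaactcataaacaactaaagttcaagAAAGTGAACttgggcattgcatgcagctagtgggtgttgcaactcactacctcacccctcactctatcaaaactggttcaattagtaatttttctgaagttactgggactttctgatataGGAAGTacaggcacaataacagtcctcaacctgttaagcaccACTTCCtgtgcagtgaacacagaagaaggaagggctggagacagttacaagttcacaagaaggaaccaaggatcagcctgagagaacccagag
Ms4a6c: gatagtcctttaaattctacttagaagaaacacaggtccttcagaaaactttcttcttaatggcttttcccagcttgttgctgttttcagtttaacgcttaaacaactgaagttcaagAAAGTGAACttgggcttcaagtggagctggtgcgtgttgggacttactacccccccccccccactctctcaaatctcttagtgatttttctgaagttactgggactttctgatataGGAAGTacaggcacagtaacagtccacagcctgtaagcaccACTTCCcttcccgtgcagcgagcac
Both windows hold AAAGTGAAC in the same stretch of shared letters, and both hold GGAAGT on each strand. The windows as wholes were 51.2% identical.

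Ms4a4d (chr19:11536544-11536843, plus strand) is shown as the gene on which the cluster was chosen, with GGAAGT in capitals on either strand.
Ms4a4d: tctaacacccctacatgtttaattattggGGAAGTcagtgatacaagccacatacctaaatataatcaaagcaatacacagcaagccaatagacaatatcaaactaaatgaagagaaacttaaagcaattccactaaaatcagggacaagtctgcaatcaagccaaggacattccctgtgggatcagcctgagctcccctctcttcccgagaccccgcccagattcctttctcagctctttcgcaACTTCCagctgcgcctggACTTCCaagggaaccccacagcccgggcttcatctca
Across both strands, GGAAGT was in 6 of the 7 genes with a window and in 23.8% of 32851 windows of the same length. AAAGTGAAC was in 2 of the 7 and in 0.326% of all windows. Both motifs were picked after the sequences had been seen, near copies share letters by descent, and a match says only that these letters are present.

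Levels of different genes can be compared only per length. Over the 12 libraries Ms4a6d, a macrophage gene, had the highest median at 16.7 CPM per kb of transcript, followed by Ms4a7 at 9.21, Ms4a6c at 6.71, Ms4a4a at 5.48, Ms4a6b at 4.10, Ms4a4d at 2.32 and Ms4a4c at 1.22. Ms4a4b was lowest, at 0.576 CPM per kb of its GENCODE transcript, and at 2.20 when the transcript was ended where RefSeq ends it, so its place in this order rests on the gene model.

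**Figure D1:**
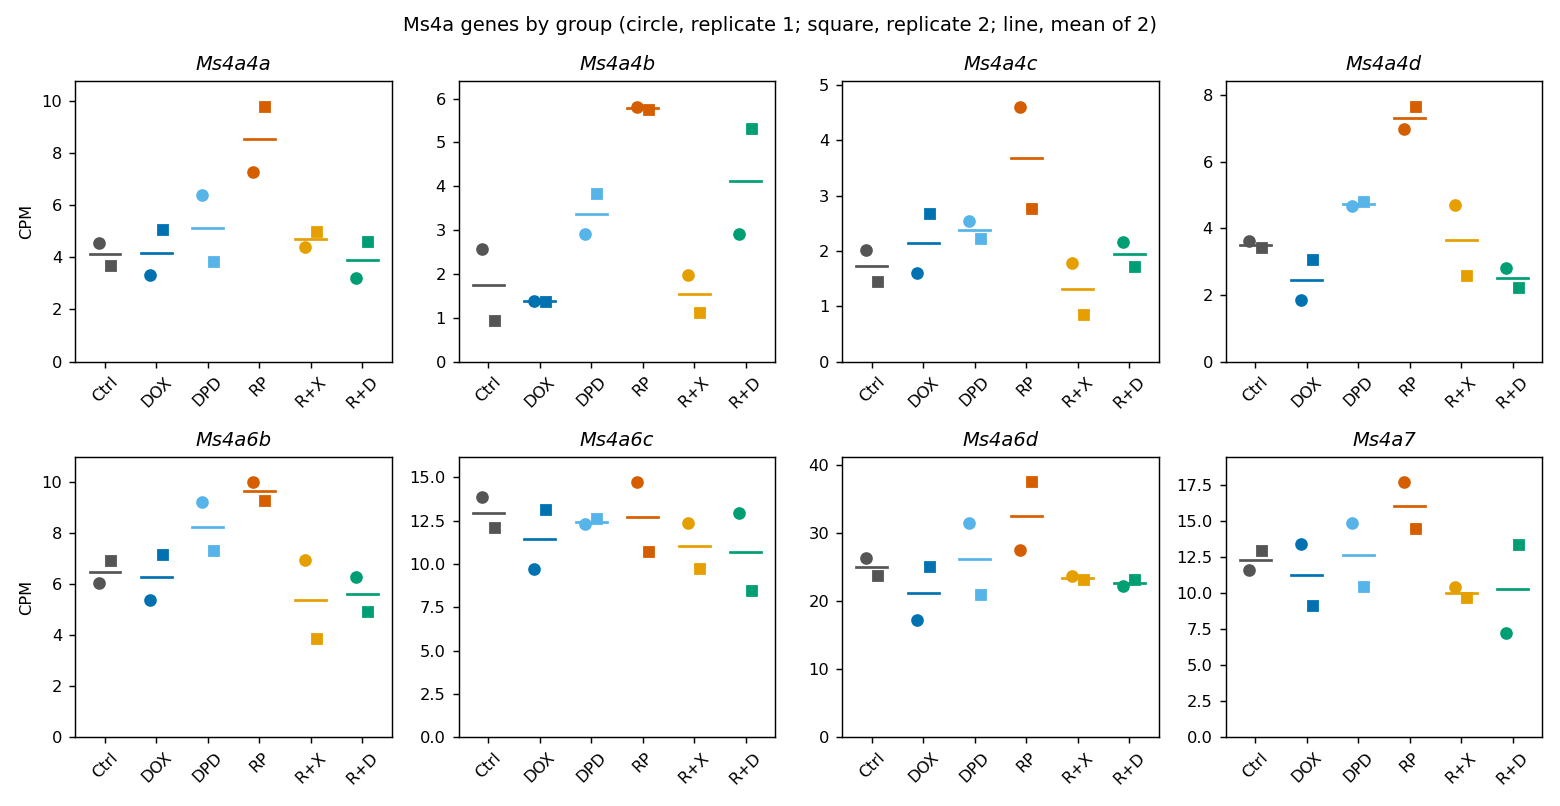
CPM of the 8 Ms4a genes (vertical axes, each from 0) in the 6 groups (horizontal axes). Each point is 1 library and each line the mean of 2. Both RP libraries stand above all 10 others for Ms4a4a, Ms4a4b, Ms4a4c, Ms4a4d and Ms4a6b, while Ms4a6c is nearly level.

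Ms4a4d, on which the choice was made, was at 3.61 and 3.41 CPM in Ctrl, 1.85 and 3.06 in DOX, 4.69 and 4.79 in DPD, 6.99 and 7.66 in RP, 4.72 and 2.56 in R+X, and 2.81 and 2.21 in R+D. Both RP libraries were above every other library. DPD and R+X overlapped, as did R+X and Ctrl, and R+D and DOX, while both R+D libraries lay below both Ctrl libraries. The group means held 83.7% of its variance on the log2 scale, a value that its choice as a gene differing between groups made high. The RP mean was 7.32 ± 0.479 CPM and the Ctrl mean 3.51 ± 0.140 (SD, n = 2), a difference of 1.06 ± 0.33 on the log2 scale (SE from the edgeR fit).

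Among its nearest relatives, Ms4a4b is a T cell gene whose protein associates with the costimulatory receptor GITR. It was at 2.57 and 0.929 CPM in Ctrl, 1.39 and 1.36 in DOX, 2.90 and 3.81 in DPD, 5.82 and 5.73 in RP, 1.97 and 1.11 in R+X, and 2.92 and 5.31 in R+D. The RP libraries were the 2 highest, R+D and DPD overlapped below them, both DPD libraries lay above both Ctrl libraries, and Ctrl, R+X and DOX overlapped at the bottom. Its highest library was 6.27 times its lowest, the widest range of the 8. Ms4a4c was at 2.02 and 1.44 CPM in Ctrl, 1.61 and 2.67 in DOX, 2.54 and 2.22 in DPD, 4.61 and 2.76 in RP, 1.78 and 0.842 in R+X, and 2.17 and 1.71 in R+D. The lower RP library was just above the higher DOX library, and each of the other groups overlapped the next in order. Counts of Ms4a4b and Ms4a4c ran from 40 and 44 in their lowest libraries, so they are the least precise of the cluster. Of the 100-base stretches of Ms4a4c, 1.66% occurred in another gene of GENCODE, and of those of Ms4a4b 0.473%. At 50 bases these were 8.19% and 2.40%, and the read length is not known here. Reads of such stretches cannot be assigned to 1 gene.

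Ms4a4a encodes a macrophage surface protein that partners the fungal sugar receptor Dectin-1. It was at 4.55 and 3.67 CPM in Ctrl, 3.31 and 5.04 in DOX, 6.41 and 3.83 in DPD, 7.29 and 9.79 in RP, 4.41 and 4.99 in R+X, and 3.19 and 4.61 in R+D. Only the RP libraries stood apart, above all others, and the other 5 groups overlapped in order of their means.

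Ms4a6b, a further T cell gene linked to GITR, was at 6.04 and 6.89 CPM in Ctrl, 5.38 and 7.15 in DOX, 9.21 and 7.31 in DPD, 9.998 and 9.28 in RP, 6.95 and 3.84 in R+X, and 6.30 and 4.92 in R+D. RP was highest by a narrow margin over DPD replicate 1, DPD lay above Ctrl without overlap, and the remaining groups overlapped.

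Ms4a6d, known from macrophages, was at 26.4 and 23.7 CPM in Ctrl, 17.2 and 25.1 in DOX, 31.4 and 20.9 in DPD, 27.5 and 37.5 in RP, 23.7 and 23.1 in R+X, and 22.3 and 23.1 in R+D. RP overlapped DPD and lay above the other groups. Ms4a7, which marks tissue and tumour macrophages, was at 11.6 and 12.95 CPM in Ctrl, 13.4 and 9.09 in DOX, 14.9 and 10.5 in DPD, 17.7 and 14.5 in RP, 10.4 and 9.66 in R+X, and 7.27 and 13.4 in R+D. Here too RP overlapped DPD alone.

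Ms4a6c, a myeloid gene, was at 13.9 and 12.1 CPM in Ctrl, 9.70 and 13.1 in DOX, 12.3 and 12.6 in DPD, 14.7 and 10.7 in RP, 12.4 and 9.70 in R+X, and 12.9 and 8.45 in R+D. It was the flattest of the 8: RP overlapped every other group, and Ctrl had the highest mean. The group means held 24.5% of its variance, below the 45.5% expected at random. Its highest library was 1.74 times its lowest.

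Ms4a6c has a neighbour on the other strand that bears on its counts. The non-coding gene BE692007 overlaps it, and 45.8% of the 100-base stretches of Ms4a6c (893 of 1951) also occurred in that gene. BE692007 was at 1.61 and 1.39 CPM in Ctrl, 0.970 and 3.20 in DOX, 4.58 and 2.18 in DPD, 5.93 and 6.52 in RP, 3.27 and 1.301 in R+X, and 3.34 and 2.77 in R+D. Unlike Ms4a6c it was highest in both RP libraries, 2.05 ± 0.58 above Ctrl on the log2 scale (edgeR adjusted p = 0.147). The use of strand in counting is not given in the sources used here, so reads of the overlapping part cannot be told apart. Across the 12 libraries BE692007 had r = 0.34 with Ms4a6c and 0.27 with Ms4a7, given as a description. With each of the other Ms4a genes r was 0.72 (Ms4a4b) to 0.77 (Ms4a4c). Within groups r ran from -0.20 with Ms4a7 to 0.85 with Ms4a4d, and was 0.56 with Ms4a6c.

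**Figure D2:**
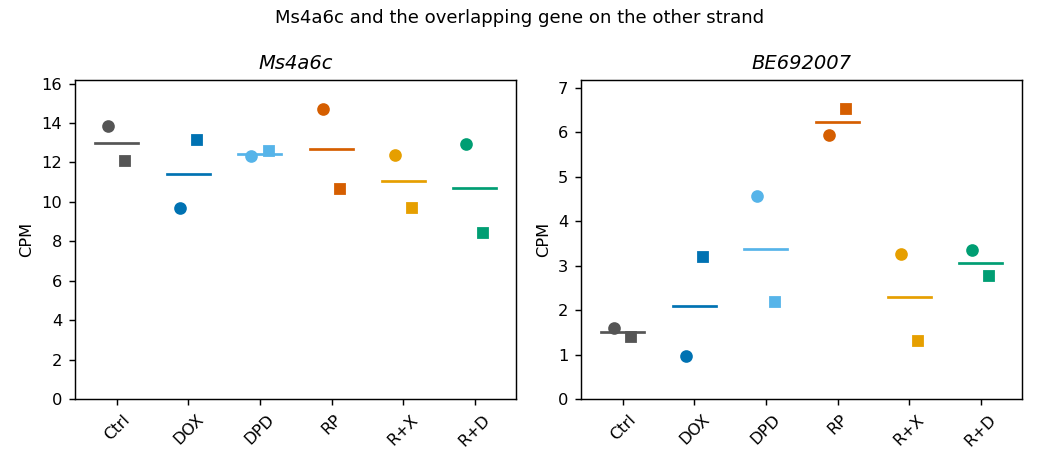
CPM (vertical axes, each from 0) of Ms4a6c and of BE692007 on the opposite strand in the 6 groups (circle, replicate 1; square, replicate 2; line, mean of 2). Ms4a6c is nearly level and BE692007 is highest in RP, at 5.93 and 6.52 CPM.

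Whether any group differed was asked first. In edgeR, 0 of the 7 tested genes passed an adjusted p under 0.05 for any difference among the 6 groups, where 0.0154% of all genes did. The smallest value was that of Ms4a4b (edgeR adjusted p = 0.306, unadjusted 0.00464), followed by Ms4a4a (0.489 and 0.0357). At an unadjusted p under 0.05 these 2 were the only ones of the 7, and the share of all genes at that level is not given here. DESeq2 called 1 of the 7, with an adjusted p of 0.000845, and 891 genes in all against 3 in edgeR.

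What the conjugate alone did was asked by comparing RP with Ctrl. The RP libraries lay above the Ctrl libraries for 7 of the 8 genes, all but Ms4a6c, while 31.4% of genes at 1 CPM or more did the same. Here and below, counts out of the 8 take in Ms4a4d, on which the cluster was chosen, and are descriptions only. The median difference of the 7 without Ms4a4d was 0.58 on the log2 scale, and that of all genes tested 0.058. Both RP libraries exceeded all 10 other libraries for 5 of the 8, against 4.46% of genes with a mean of at least 1 CPM, a count that includes Ms4a4d and near copies that are not independent of each other. By edgeR, 0 of the 7 passed, and 0.0154% of all genes did. At an unadjusted p under 0.05 there were 3 of the 7, and 4182 of the 19525 genes tested.

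Ms4a4b had the largest difference, 1.72 ± 0.47 on the log2 scale (3.28-fold, edgeR adjusted p = 0.146). It was followed by Ms4a4c at 1.09 ± 0.42 (adjusted p = 0.196), Ms4a4a at 1.05 ± 0.33 (0.161), Ms4a6b at 0.58 ± 0.29 (0.274), Ms4a7 at 0.39 ± 0.30 (0.446) and Ms4a6d at 0.38 ± 0.24 (0.367). The Ms4a4 genes thus differed by as much as Ms4a4d or more within their errors, and the Ms4a6 genes and Ms4a7 by smaller estimates, a contrast that was not tested. DESeq2 called Ms4a4b (adjusted p = 0.0152) and Ms4a4a (adjusted p = 0.0444), among 1132 genes in all. With 1 library left out at a time, the difference of Ms4a4b ran from 1.16 to 2.63 (the highest without Ctrl replicate 1) and 0 of the 7 passed edgeR.

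The muscle genes moved with this comparison: 14 of 15 were higher in RP, with a median difference of 2.80. T cell markers were higher in 14 of 14 cases (median 1.26, summed level 106 to 119 CPM in RP and 68.1 to 73.7 in Ctrl), macrophage markers in 8 of 12 (median 0.28, 1614 to 1915 against 1498 to 1663 CPM) and monocyte markers in 7 of 10 (median 0.76, 1321 to 1807 against 998 to 1261 CPM). Interferon gamma response genes were higher in 18 of 18 cases (median 1.39, 3052 to 3779 against 1212 to 1380 CPM), regulatory T cell markers in 8 of 8 (median 1.73, 35.0 to 42.9 against 16.0 to 17.5 CPM) and natural killer cell markers in 7 of 7 (median 1.33, 17.8 to 20.5 against 10.6 to 10.8 CPM). Skin genes were higher in 9 of 10 cases (median 2.23), with summed levels that overlapped at 392 to 524 against 377 to 444 CPM. Of 6 neutrophil markers tested 5 were higher (median 1.52), but their sum was lower, at 31.3 to 47.9 against 50.4 to 50.5 CPM. None of these list members passed edgeR, and apart from the muscle covariate below their part in the result was not tested. With the muscle list mean as a covariate, the difference of Ms4a4b was 1.02, that of Ms4a4a 0.93, that of Ms4a4d 1.21, and that of Ms4a7 turned to -0.27.

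**Figure D3:**
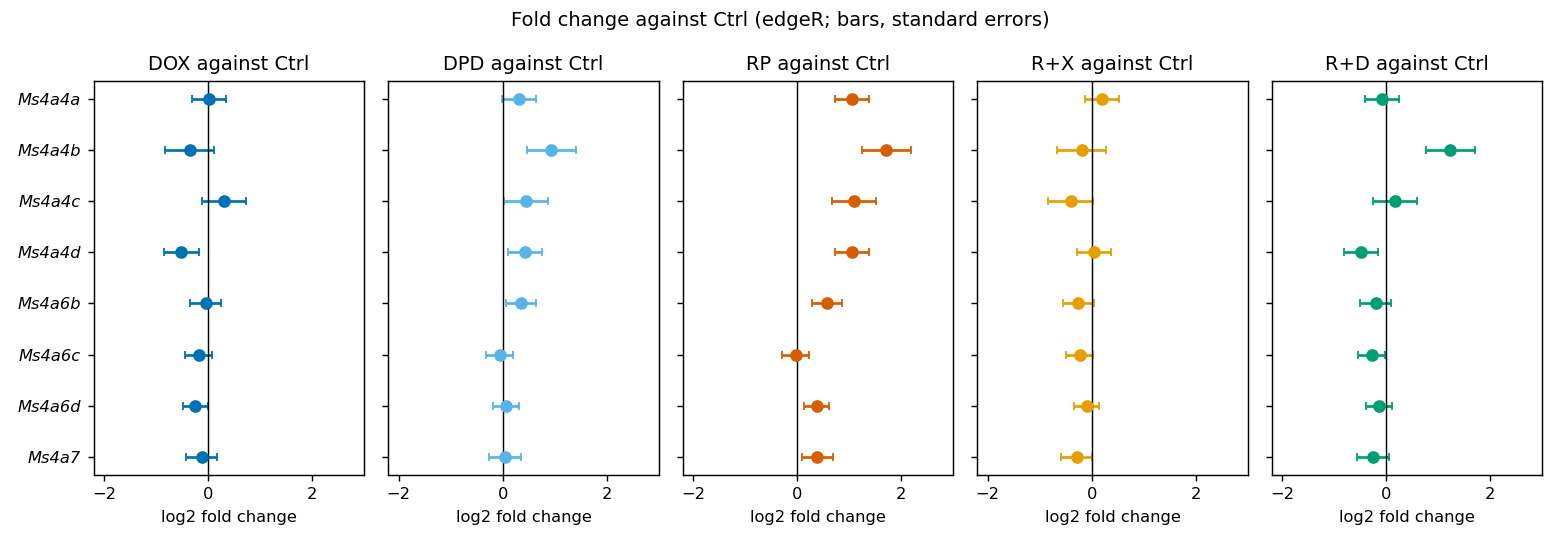
Difference from Ctrl on the log2 scale (horizontal axes) for the 8 Ms4a genes (vertical axis) in each treated group. Points are edgeR estimates and bars standard errors. The 4 Ms4a4 genes sit above 1 in RP, and elsewhere only Ms4a4b comes close, at 0.93 in DPD and 1.23 in R+D.

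The drugs alone were compared with Ctrl next. In DOX, 0 of the 7 tested genes passed edgeR (0% of all genes did). At an unadjusted p under 0.05 there were 0 of the 7, and 407 of the 19525 genes tested. The groups failed to overlap for Ms4a4d alone, which was lower by 0.51 on the log2 scale, in a direction shown by 7.08% of genes. That difference was -0.20 without DOX replicate 1 and -0.92 without DOX replicate 2. In DPD, 4 of the 8 lay above Ctrl without overlap, against 19.6% of genes: Ms4a4b by 0.93 ± 0.47 (edgeR adjusted p = 0.725), Ms4a4c by 0.46 ± 0.42 (0.737), Ms4a4d by 0.43 ± 0.33 (no test) and Ms4a6b by 0.35 ± 0.29 (0.728). The difference of Ms4a4b ran from 0.38 to 1.85 with 1 library left out, the highest without Ctrl replicate 1. Again 0 of the 7 passed, at 0% of all genes, with 0 at an unadjusted p under 0.05, against 784 of all genes tested.

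The prodrug and the drug were given at the same dose by the same route, so DPD can be set against DOX directly. Of the 8 genes, 3 were higher in DPD without overlap, Ms4a4d among them, against 10.3% of genes. Ms4a4b was higher by 1.29 on the log2 scale, with a 95% interval of 0.24 to 2.34 (edgeR adjusted p = 0.979). Ms4a6b was higher by 0.40 (interval -0.25 to 1.05, adjusted p = 0.979). Ms4a4d was higher by 0.95 ± 0.33, by 0.63 without DOX replicate 1 and by 1.35 without DOX replicate 2. No gene of the 7 passed (0% of all genes), and 1 had an unadjusted p under 0.05, as did 837 of the 19525 genes tested.

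In the combinations, R+D against R+X set the prodrug against the drug with the conjugate present. Ms4a4b was higher in R+D by 1.42, with a 95% interval of 0.37 to 2.47 (edgeR adjusted p = 0.910), the only one of the 8 higher without overlap, against 21.7% of genes. Ms4a6d was lower without overlap, by 0.04 ± 0.24 (adjusted p = 1), against 26.4% of genes. By edgeR 0 of the 7 passed (0% of all genes), and 1 had an unadjusted p under 0.05, as did 1028 of the 19525 genes tested. Ms4a4b thus had the higher mean with the prodrug in both settings, by 1.29 without the conjugate and by 1.42 with it. R+D replicate 2, which held the higher Ms4a4b level of that group, was also the library with the most muscle RNA, and its T cell markers summed to 110 CPM against 69.6 in R+D replicate 1. With the muscle list mean as a covariate, the difference of Ms4a4b was 0.72. The part of the T cell markers was not tested.

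The combined groups were also compared with Ctrl. In R+X, 2 of the 8 were lower without overlap, against 32.1% of genes: Ms4a6d by 0.10 ± 0.24 (edgeR adjusted p = 0.880) and Ms4a7 by 0.29 ± 0.30 (0.687). In R+D, Ms4a4b was higher by 1.23 ± 0.47 (adjusted p = 0.314), where 31% of genes were higher without overlap. That difference ran from 0.68 to 2.14 with 1 library left out, the highest without Ctrl replicate 1, and was 0.63 with the muscle covariate. Ms4a4d was lower by 0.48 ± 0.33 and Ms4a6d by 0.14 ± 0.24 (0.767), where 32.7% of genes were lower. In both comparisons 0 of the 7 passed edgeR (0% of all genes), with 0 of the 7 at an unadjusted p under 0.05 in R+X and 1 in R+D. Of the 19525 genes tested, 1172 were at that level in R+X and 2998 in R+D.

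Adding a drug to the conjugate was asked by comparing each combined group with RP. These comparisons share the RP libraries with RP against Ctrl, so the high RP values enter all of them. In R+X, 7 of the 8 were lower than in RP without overlap, Ms4a4d among them, against 21.5% of genes. The median difference was -0.84 for the 7 without Ms4a4d and -0.0029 for all genes. Ms4a4b was lower by 1.91 ± 0.48 (edgeR adjusted p = 0.277), Ms4a4c by 1.49 ± 0.43 (0.314), Ms4a4a by 0.86 ± 0.33 (0.456), Ms4a6b by 0.84 ± 0.30 (0.419), Ms4a7 by 0.68 ± 0.30 (0.571) and Ms4a6d by 0.47 ± 0.24 (0.667). Ms4a4d was lower by 1.01 ± 0.33, by 1.48 without R+X replicate 1 and by 0.62 without R+X replicate 2. Without R+X replicate 1 the difference of Ms4a4c was -2.10. By edgeR 0 of the 7 passed (0% of all genes), and 5 had an unadjusted p under 0.05, as did 1694 of the 19525 genes tested. DESeq2 called Ms4a4b (adjusted p = 0.0110), among 307 genes in all. The muscle list summed to 92.5 and 108 CPM in R+X against 189 and 376 in RP, and with its mean as a covariate Ms4a4b was lower by 1.11 and Ms4a7 higher by 0.086.

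In R+D, 7 of the 8 were likewise lower than in RP without overlap, Ms4a4d among them, against 11.9% of genes. The median difference was -0.64 for the 7 without Ms4a4d and 0.0034 for all genes. The order of the genes was another one. Ms4a4d was lower by 1.54 ± 0.33, Ms4a4a by 1.13 ± 0.33, Ms4a4c by 0.92 ± 0.42, Ms4a6b by 0.78 ± 0.30, Ms4a7 by 0.64 ± 0.30, Ms4a6d by 0.52 ± 0.24 and Ms4a4b by 0.49 ± 0.46. The edgeR adjusted p was 1 for each of the 6 tested, and 0 of the 7 passed (0% of all genes). An unadjusted p under 0.05 was found for 2 of the 7, and for 534 of the 19525 genes tested. With the muscle covariate, Ms4a4d was lower by 1.59 and Ms4a4a by 1.12.

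Each combination was also set against its drug alone, which differed from it in the route of the drug as well. In R+X against DOX, 0 of the 8 failed to overlap, where 13.6% of genes were higher and 14.2% lower without overlap. By edgeR 0 of the 7 passed there (0% of all genes). In R+D against DPD, 3 of the 8 were lower without overlap, against 12% of genes: Ms4a4d by 0.92 ± 0.33, Ms4a6b by 0.56 ± 0.29 (edgeR adjusted p = 1) and Ms4a4c by 0.29 ± 0.42 (1), with 0 of the 7 passing (0% of all genes). In both comparisons 0 of the 7 had an unadjusted p under 0.05, against 546 and 450 of all genes tested.

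Whether the conjugate's effect differed with a drug present was tested by the difference of the effects. Both tests subtract the same difference, RP against Ctrl, so those libraries enter both. With a drug, the conjugate came with another route of that drug and at a dose not stated. These cannot be told apart from the conjugate's effect in the values below. With DOX, the effect on Ms4a4c was smaller by 1.80 ± 0.60 on the log2 scale and that on Ms4a4b by 1.55 ± 0.67 (edgeR adjusted p = 0.998 for both). With DPD, it was smaller by 1.45 ± 0.47 for Ms4a4a, 1.42 ± 0.65 for Ms4a4b, 1.38 ± 0.60 for Ms4a4c and 1.13 ± 0.42 for Ms4a6b (edgeR adjusted p = 0.840 for each). Named here are the tested genes with an effect smaller by more than 1. The median over the 7 was -0.79 with DOX and -1.13 with DPD. None of the 7 passed in either test (0% of all genes in both). Averaged over the drug settings, Ms4a4b was higher in the groups with the conjugate by 0.72 ± 0.27 (edgeR adjusted p = 0.202). The other 6 tested lay between -0.10 and 0.28, with 0 of the 7 passing against 0.0154% of all genes.

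Levels in bulk tumours were next set beside marker lists. Each gene's log2 CPM was correlated over the 12 libraries with the mean of macrophage, monocyte, T cell and interferon gamma response genes. These were 32 relations in all, with two-sided permutation tests adjusted over the 32. The permutations mixed libraries of all groups, so their p-values also take in differences between groups. The r within groups has no p. Of the 28 relations that do not concern Ms4a4d, 5 passed, and 2 of these still passed without the 2 libraries farthest from the median of the list.

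Those 2 belonged to Ms4a4b. With the T cell list, r was 0.94 and rho 0.95 (permutation adjusted p = 0.00096 and 0.00064), r was 0.92 without RP replicate 1 and R+X replicate 2 (adjusted p = 0.00992), and r of the deviations from group means was 0.83. With the interferon gamma response list, r was 0.92 and rho 0.90 (permutation adjusted p = 0.00096 and 0.00139), r was 0.87 without both RP libraries (adjusted p = 0.0293), and 0.68 within groups. Ms4a4b also followed the skeletal muscle list, with r = 0.80, and 0.56 within groups. The lists were themselves high in the same libraries, and their parts were not told apart.

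Ms4a7 followed the macrophage list, with r = 0.80 and rho 0.92 (permutation adjusted p = 0.0147 and 0.00139), and 0.74 within groups. Without RP replicate 1 and DOX replicate 2, r was 0.69 (adjusted p = 0.318), and with any 1 library left out it ran from 0.72 to 0.92. Leaving out the libraries farthest from the median narrows the range of the list. The lost call thus cannot show that the relation rests on those libraries. Ms4a4a followed the monocyte list with r = 0.76 and rho 0.69 (permutation adjusted p = 0.0312 and 0.0690), and Ms4a4b did with r = 0.72 and rho 0.62 (0.0384 and 0.134). Without both RP libraries these were 0.41 and 0.50 (adjusted p = 0.570 for both), and within groups 0.16 and 0.33, so both were weaker there. Ms4a4d followed the monocyte list with r = 0.84 as a description, 0.65 without the RP libraries and 0.63 within groups. Ms4a6c followed none of the 4 lists closely, with r from 0.09 to 0.32.

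Lists of other cells and tissues moved with some of these genes too, given as descriptions with no p. Ms4a4a followed the neutrophil list with r = 0.82, and 0.73 within groups, where its r with the monocyte list was 0.16. Within groups, Ms4a4a and Ms4a6d followed the skin list with r = 0.77 and 0.78, and Ms4a7 followed the muscle list with 0.79, near its 0.74 with the macrophage list. Their part in the relations above was not tested.

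**Figure D4:**
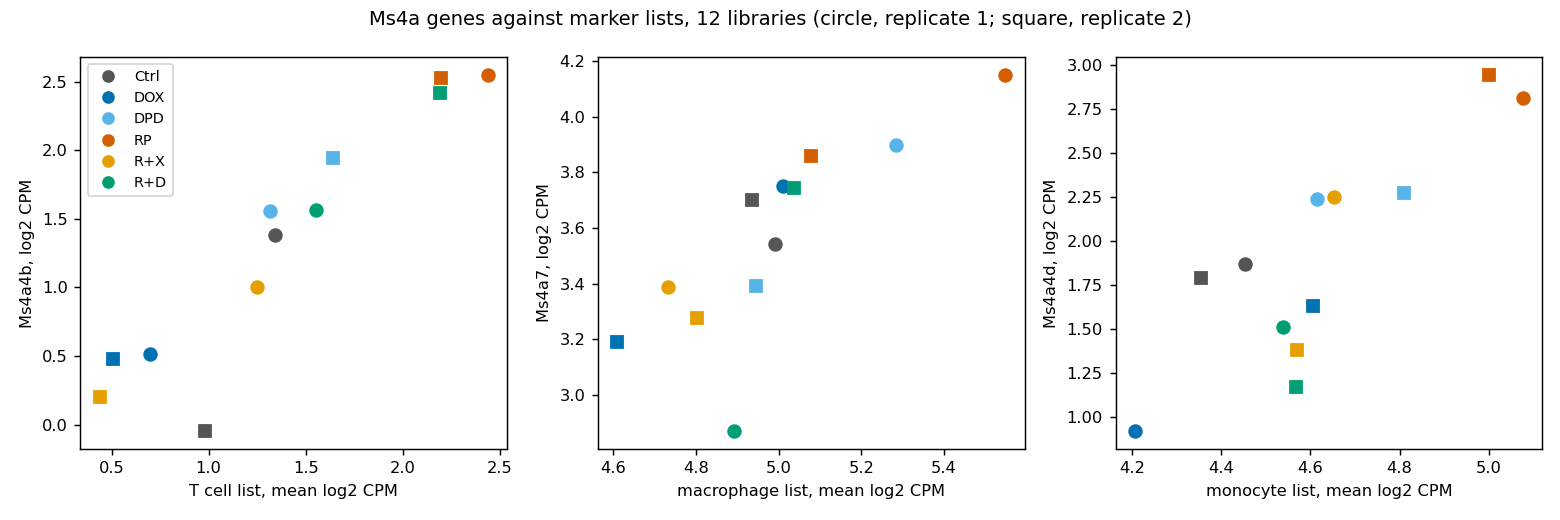
Log2 CPM of Ms4a4b, Ms4a7 and Ms4a4d (vertical axes) against the mean log2 CPM of T cell, macrophage and monocyte markers (horizontal axes). Each point is 1 of 12 libraries, coloured by group. Ms4a4b climbs with the T cell markers over the whole range (r = 0.94).

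The 8 genes did not vary as 1 block. Of the 21 pairs without Ms4a4d, 2 passed a permutation test adjusted over all 28 pairs, and 0 did without the 2 libraries farthest from the median. Ms4a4a and Ms4a6d varied together, with r = 0.89 and rho 0.80 (permutation adjusted p = 0.0042 for r), 0.90 within groups, and 0.80 without both RP libraries (adjusted p = 0.138). Ms4a4c and Ms4a6b varied together, with r = 0.87 and rho 0.87 (permutation adjusted p = 0.0042 for r), 0.79 within groups, and 0.68 without R+X replicate 2 and RP replicate 1 (adjusted p = 0.167). As descriptions, Ms4a4d followed Ms4a6b with r = 0.84, Ms4a6d with 0.74 and Ms4a4a with 0.73. Ms4a4b and Ms4a4c, the nearest copies in coding sequence, had r = 0.66 (permutation adjusted p = 0.0700). Among the Ms4a6 genes, Ms4a6b had r = 0.62 with Ms4a6d and 0.63 with Ms4a6c (permutation adjusted p = 0.0963 for both), and Ms4a6c with Ms4a6d, the least alike of the 3 in sequence, had 0.24 (adjusted p = 0.518). Within groups, Ms4a4c, Ms4a4d, Ms4a6b and Ms4a6c formed a set with r from 0.66 to 0.87, and Ms4a7 went with none of them, at -0.56 to -0.17.

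**Figure D5:**
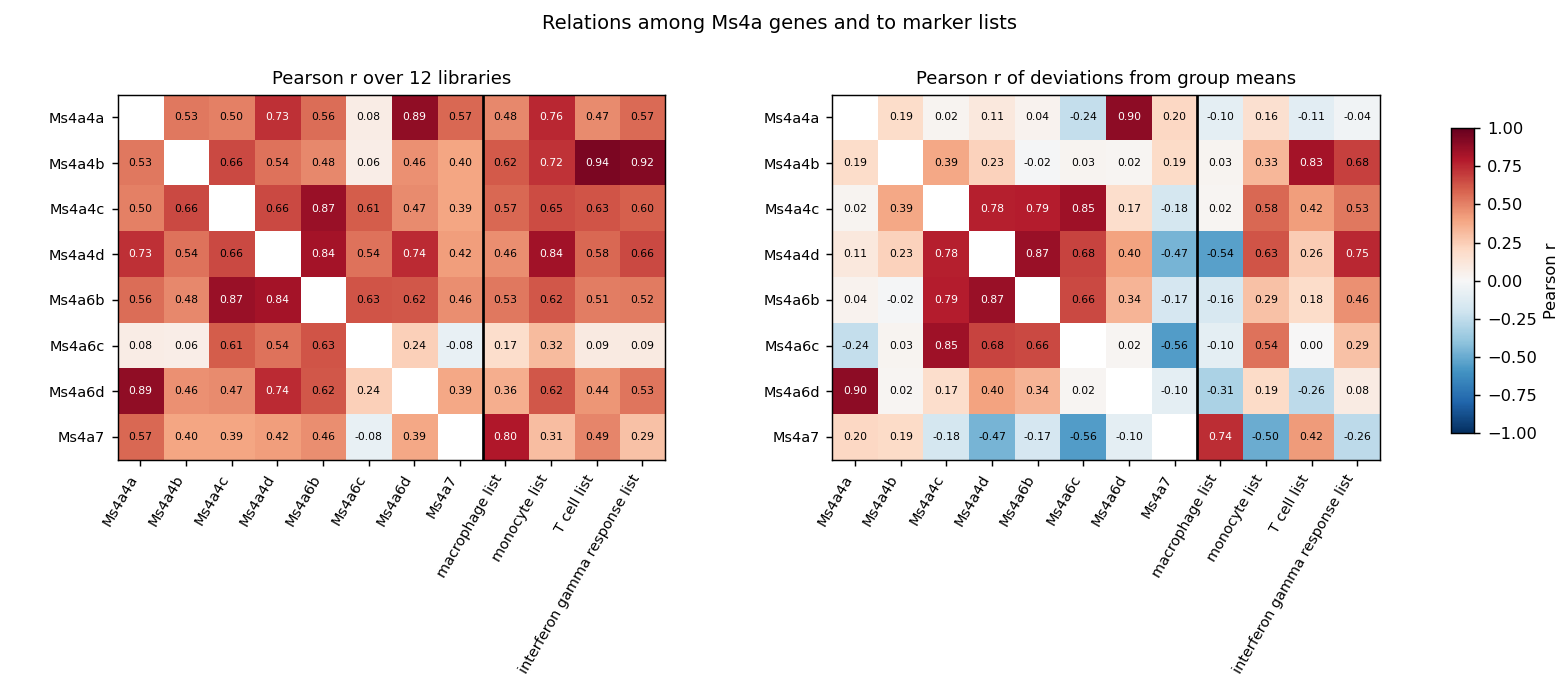
Pearson r of log2 CPM over 12 libraries (left) and of deviations from group means (right) for each Ms4a gene (rows) with the other Ms4a genes and with 4 marker lists (columns). Red is positive and blue negative. Ms4a4a pairs with Ms4a6d (0.89 and 0.90), and Ms4a4b stands with the T cell list (0.94 and 0.83).

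The genes most like each of the 8 were sought among 13156 named genes at 1 CPM or more, by r over the 12 libraries, as a description. Ms4a4b was most like Cd3g, a subunit of the T cell receptor complex (0.97), the ectoenzyme gene Bst1 (0.96) and Klrk1, which encodes the activating receptor NKG2D (0.95). Ms4a4a was most like Cd38, another ectoenzyme gene (0.90), Ms4a6d (0.89) and Taf9b (0.88), and Ms4a6d most like Ms4a4a, Taf9b (0.86) and the leukocyte tetraspanin gene Cd53 (0.84). Ms4a4c was most like Ms4a6b (0.87), Pop1 (0.86) and Lcp2, an adaptor of antigen receptor signalling (0.85).

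Ms4a6b was most like Ms4a4c, Ms4a4d (0.84) and Fst (0.82), and Ms4a4d most like the endothelial receptor gene Robo4 (0.86, and 0.38 within groups), Gpr171 (0.85) and the interferon-inducible gene Ifi209 (0.84). Ms4a6c was most like Pcdh12 (0.91), the DNA sensor gene Tlr9 (0.82) and Dis3l (0.82). Ms4a7 was most like Klhl22, listed in 2 rows (0.92 and 0.91), and the class Ib antigen gene H2-T23 (0.92, rho 0.99). These values rank 13156 genes over 12 libraries and describe those libraries alone.

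Other genes of the family and known partners were read from lists. Of 18 further family names, 13 had rows and 4 passed the filter, with 0 passing edgeR in RP against Ctrl. Ms4a14 was at 2.78 CPM in RP and 0.866 in Ctrl, a difference of 1.68 ± 0.43 on the log2 scale (edgeR adjusted p = 0.130). The more distant relatives Tmem176a and Tmem176b differed by 0.96 ± 0.34 and 0.77 ± 0.27 (adjusted p = 0.178 and 0.174), and Ms4a8a by 0.62 ± 0.42 (0.392). The B cell gene Ms4a1 had 16 counts over all 12 libraries and the mast cell gene Ms4a2 had 32, and Ms4a3, Ms4a5, Ms4a10, Ms4a12 and Ms4a13 were at 0 counts.

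Among partners, Tnfrsf18, which encodes GITR, was at 8.81 CPM in RP and 2.51 in Ctrl, a difference of 1.81 ± 0.41 (edgeR adjusted p = 0.127), similar in size to that of Ms4a4b. Tnfrsf18 is also on the regulatory T cell list, whose median difference was 1.73. Clec7a, which encodes Dectin-1, the partner of the Ms4a4a protein, differed by 0.24 ± 0.24 (adjusted p = 0.546). Trem2, a receptor of lipid-laden macrophages, was lower by 0.33 ± 0.34 (0.566). The monocyte receptor gene Cd14 differed by 0.47 ± 0.26 (0.301) and the myeloid adaptor gene Tyrobp by -0.04 ± 0.31 (0.950). The groups overlapped for Clec7a, Trem2, Cd14 and Tyrobp. Vsig4, a macrophage receptor known as a partner of the Ms4a6d protein, had 35 counts over all 12 libraries and was not tested.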

How the data were processed

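Total RNA of 12 MC38 tumour libraries was sequenced. The deposited values were raw counts per gene, not normalised, and each of the 12 library files equalled its column of the table used. HISAT2 2.1.0, StringTie 1.3.5, DESeq2 and build GRCm38 are named per the submitters' processing notes. What is not given in the sources used here is strand use, read length and annotation. The code RP was taken to stand for Ru-PD-L1. R+X was taken as its combination with DOX, the sole agent spelled with an X, which leaves DPD for R+D. If R+X and R+D were exchanged, their values would change places. Replicate numbers follow the order of listing and pair nothing. Separate mice for the libraries of a group are not stated in the labels. The p-values thus reflect only the spread between these samples, and that spread may be technical.

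One edgeR 4.0.16 quasi-likelihood fit (R 4.3.3, TMM, filterByExpr) held all 12 libraries, with 6 residual degrees of freedom and a biological coefficient of variation of 0.257. A gene passed when its adjusted p (Benjamini-Hochberg, over all 19525 genes tested) was under 0.05. CPM are TMM-scaled, log2 CPM used a prior count of 2, and errors of log2 differences are SE. A difference is given where the 2 groups did not overlap in CPM and the mean was at least 1 CPM, and other members are counted. Correlations, between members as well as with lists, used 100000 permutations that did not keep libraries within their groups. The fits were repeated with DESeq2 1.42.0, limma-voom 3.58.1, RLE scaling, no low-count filter, a muscle covariate, only the groups compared, and each library left out. The script was tested on simulated data. Sequences and coordinates are RefSeq's. Transcripts are from GENCODE. Members, marker lists and tests were chosen with earlier results of these data known.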

Additional observations from a re-analysis of the deposited data

How the results depend on the processing

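For the 7 tested Ms4a genes, the count passing was 0 in every comparison under RLE scaling, no low-count filter, limma-voom, the muscle covariate, only the groups compared, and with any 1 library left out (0 to 0). The smallest adjusted p over these was 0.0633, with only the groups compared. DESeq2 passed 1 gene for any difference among the 6 groups, 2 for RP against Ctrl and 1 for R+X against RP, and 0 elsewhere. Over all genes it passed 891, 1132 and 307 in these comparisons. The cause was not tested. Over all genes the choice of test mattered far more: RP against Ctrl gave 3 in edgeR, 1132 in DESeq2, 505 with only the groups compared, 16 in limma-voom and 0 to 48 with 1 library left out. The averaged conjugate gave 3, with 927 in DESeq2 and 0 to 3233 with 1 library left out.

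The muscle covariate turned 3 differences: Ms4a7 to -0.27 in RP against Ctrl and to 0.086 in R+X against RP, and Ms4a6d to 0.075 in R+D against R+X. The cause was not tested. Relations to marker lists that passed numbered 5, and 2 without the 2 farthest libraries. By rho, chosen after seeing the data, 4 passed. Among them was Ms4a6b with the monocyte list, at rho 0.77 (permutation adjusted p = 0.0335). Its r there was 0.62 (permutation adjusted p = 0.0815), and 0.29 within groups. No paired analysis was possible because the labels number no replicates. With 2 libraries a group, a library left out leaves a lone one that is assumed to vary like the other groups. Depth limits Ms4a4b and Ms4a4c most, with 40 and 44 counts in their lowest libraries.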
